A study of Mus musculus with 2 samples.

Results

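*Erg*, *Fli1*, *Ets1*, *Ets2*, *Pthlh* and *Pth1r* encode 4 ETS transcription factors, a secreted ligand and its receptor, read here in the cells of the mouse coronal suture. They were taken by symbol because the source study names *Erg* and *Pthlh* among the markers of a suture progenitor cluster called OG1. The other members are further ETS factors and the receptor of the ligand. All 6 of 6 symbols were found, each under 1 identifier, among the 31053 genes listed for E15.5 and the 27998 listed for E17.5.

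The study profiled single cells of C57BL/6J coronal sutures at embryonic days E15.5 and E17.5, with 1 deposited sample per stage, called a library here. The E15.5 library pooled 10 sutures digested with collagenase II and dispase, with dead cells removed. The E17.5 library joins 3 batches, prepared apart as a technical control from 16 sutures of 2 litters, digested with collagenase IV and sorted by flow cytometry. The matrices also list different numbers of genes, and the E15.5 header names a later Cell Ranger release than the study's methods. The libraries were sequenced at different centres and to different mean reads per cell. Age, digestion, sorting, pooling, sequencing and counting thus all change from one library to the other. Their parts in any difference between the libraries cannot be told apart.

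ETS factors bind DNA at sites built around a GGAA core, and family members share this core through a common DNA-binding domain. *Erg* and *Fli1* are best known from endothelial and blood cells, and *Erg* also marks developing joint cartilage. *Pthlh* encodes parathyroid hormone-related protein, which acts over short distances through the G-protein-coupled receptor encoded by *Pth1r*, and in the growth plate this signal holds chondrocytes in a proliferating state.

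Cells with a cluster label numbered 5335 in the E15.5 library, with 48607817 UMIs (counted molecules) in all and 8510 in the median cell. The E17.5 library had 6830 such cells, 92585034 UMIs and a median of 12301.5. OG1 made up 261 of the former (median 6836 UMIs) and 1010 of the latter (median 10896). The libraries shared 94 barcode sequences among the cells used, and the 3 E17.5 barcode suffixes shared 8, 9 and 20 pairwise. Levels are given as CPM, the UMIs of a gene per 1000000 UMIs of the same cells, and every interval is a 95% interval for the error of counting alone, which leaves out differences between embryos or batches. The E17.5 suffixes are not matched to batches in the labels, and their values are given where they change a reading.

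The OG1 label was described first. The study clustered both datasets together, so likeness of OG1 between libraries is partly built in and is no check of the label. Across the 15 clusters, the E15.5 OG1 profile correlated best with E17.5 OG1 (r = 0.557 over 5393 genes), followed by OG2 (0.491) and PO1 (0.413). *Net1*, which the study also ties to this cluster, stood at 52.5 CPM in OG1 against 17.2 outside it in the younger library, where MG2 was highest (57.6 CPM), and at 168 against 48.0 in the older, where OG1 was highest. *Six2* differed less, at 14.6 against 10.1 CPM and then 41.7 against 30.8, and its highest cluster was meningeal at both stages (MG3 and MG2). *Runx2* and *Sp7*, which drive osteoblast formation, were 38.5 and 15.1 CPM in OG1 at first and 82.1 and 91.9 CPM later, and were highest in OG4 each time. *Ifitm5*, an osteoblast gene, reached 3263 and 3238 CPM in OG4 but 12.5 and 46.8 CPM in OG1. OG1 was therefore low in a differentiated osteoblast marker, while *Six2* at either stage and *Net1* at E15.5 did not single it out.

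Of the 4 ETS factors, *Erg* was the only member at 2-fold or more in OG1 over the other labelled cells in both libraries. Its level in OG1 was 6.76 CPM (3.60 to 11.6; 13 UMIs) against 1.95 CPM elsewhere at E15.5, a ratio of 3.47 (1.78 to 6.23). At E17.5 it was 86.3 CPM (81.2 to 91.8; 1032 UMIs) against 17.7, a ratio of 4.87 (4.49 to 5.28), with 4.99, 4.67 and 4.96 in the 3 suffixes. Since the study selected *Erg* as a marker of the same cells, these ratios describe that selection. Among 11868 genes with at least 50 UMIs in each library, 3.68% reached 2-fold in OG1 at E15.5, 0.817% at E17.5 and 0.295% in both. Of the 6 members 1 did so at E15.5 (*Erg*), 3 at E17.5 (*Erg*, *Ets2*, *Pthlh*) and 1 in both. By this ratio *Erg* took rank 4 of the 11868 genes at E17.5, after rank 96 at E15.5.

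In the order of clusters for *Erg*, OG1 was level with its neighbours at E15.5 and apart from them at E17.5. At E15.5 MG2, a meningeal cluster, came first at 9.10 CPM (5.99 to 13.2), ahead of OG1 and of EC4 at 5.13 CPM (3.18 to 7.84), and the interval of every cluster met that of the next, though not that of clusters far down the order (EC3 at 1.12 CPM, 0.578 to 1.95). EC2, MG1, MG4, OG4 and PO2 held no *Erg* UMI at that stage, and 3 UMIs would be 0.326, 11.5, 4.51, 1.66 and 6.20 CPM there, so only EC2 and OG4 can be placed under OG1 by this count. At E17.5 OG1 led, MG2 followed at 57.6 CPM (51.1 to 64.8) and PO2 at 34.0 CPM (25.6 to 44.2), with no overlap between OG1 and MG2 or between MG2 and PO2. PO1 (32.9 CPM), EC1 (30.1), LIG (25.6), MG1 (18.5), OG2 (16.1), EC4 (13.6), OG3 (11.7), EC3 (10.7), MG4 (10.5), MG3 (7.35), EC2 (3.15) and OG4 (2.00) came after, each meeting its neighbour. OG1 thus stood apart from its nearest clusters at E17.5 only, and MG2 was a second high cluster at both stages. OG1 held 12.5% of the labelled *Erg* UMIs at E15.5 and 41.9% at E17.5, beside 3.96% and 12.9% of all UMIs.

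*Erg* was also far more abundant in the E17.5 library as a whole. The E17.5 to E15.5 ratio was 12.8 (7.43 to 24.1) in OG1, 9.09 (7.35 to 11.4) in the other labelled cells and 12.4 (10.2 to 15.3) over all of them. The intervals overlap, so the shift was not set apart in OG1. Whether the different gene annotations of the matrices bear on this ratio was not tested. In 14 of the 15 clusters the interval of this ratio lay above 1, with values of 23.1 in EC1 and 22.4 in PO1, 10.2 in LIG, 6.34 in MG2 and 2.65 in EC4. OG4, with no UMI before and 21 after, was at least 1.21-fold against a floor of 3 UMIs, with an interval that reached below 1. Within OG1, 7.28% of 9846 genes were at 2-fold or more between the libraries and 8.19% at 0.5-fold or less. Of the 6 members 2 reached 2-fold (*Erg* and *Pthlh*) and 0 reached 0.5-fold, and *Erg* ranked 24 of 9846.

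Unlabelled cells gave a second view of the same shift. These cells passed the study's stated filters and were grouped by marker counts into gates, each a range of counts and not a cell type. In the endothelial gate, where *Erg* is a known identity factor, its E15.5 level was 14.5 CPM (5.33 to 31.6; 37 cells) and its E17.5 level 64.0 CPM (49.99 to 80.7; 99 cells). The ratio of 4.41 (1.93 to 12.4) shows *Erg* higher in the E17.5 library outside the osteogenic cells too. Chondrocyte-gated cells went from 6.18 to 32.9 CPM and mast-cell-gated cells from 19.3 to 40.9 CPM. The later mast-cell value rests on suffix 3, which held 22 of its 23 UMIs (56.3 CPM), with 1 UMI in suffix 2 (6.36 CPM) and 0 in suffix 1. In the macrophage gate *Erg* had 0 UMIs at E15.5, where 3 would be 1.03 CPM. Its E17.5 level there was 7.26 CPM (5.48 to 9.43), at least 7.05-fold against a floor of 3 UMIs. Macrophages are not known for *Erg*, so E17.5 levels at or under that of the macrophage gate are not read as expression. OG4 and EC2 lay under its whole interval, and the intervals of MG3, MG4 and EC3 met it. Since OG4 and EC2 fell below it, the gate is not a floor that all clusters share. This reading therefore depends on the gate taken as background.

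Detection per cell was compared between OG1 and the macrophage gate. At E15.5 *Erg* had a UMI in 4.21% of OG1 cells (median 6836 UMIs) and at E17.5 in 52.1% (median 10896). The macrophage gate gave 0% (288 cells, median 9278) and 5.94% (606 cells, median 9967). With each cell thinned to 3000 UMIs, the OG1 shares were 1.61% and 22.6% and the macrophage shares 0% and 1.49%, so the OG1 share exceeded the background at equal depth. At E17.5 484 OG1 cells had no *Erg* UMI, 255 had 1, 147 had 2, 65 had 3 and 59 had 4 or more, up to 9.

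Endothelial transcripts were also counted in OG1. The 4 gate markers (*Cdh5*, *Pecam1*, *Kdr*, *Emcn*) summed to 7.80 and 4.94 CPM in OG1 by stage, under the 14.99 and 9.92 CPM of the other labelled cells. The endothelial gate, chosen by these markers, had 1712 and 2770 CPM by construction. None of the 4 was at 0, and *Pecam1* was the most abundant in OG1 (2.60 and 1.42 CPM). A further 8 markers summed to 36.4 and 25.6 CPM, led by *Egfl7*, with *Sox17* at 0 at E15.5. The 718 E17.5 OG1 cells in which none of these 12 markers was seen had *Erg* at 90.3 CPM (83.8 to 97.1), against 76.8 CPM (67.9 to 86.6) in the 261 cells with 1 marker and 89.5 CPM (64.0 to 122) in the 31 cells with more. *Erg* in OG1 was therefore as high in cells without any detected endothelial marker as in the whole cluster.

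*Fli1*, a close relative of *Erg*, was not higher in OG1 than in the other labelled cells of either library as a whole. Its level was 3.64 CPM (1.46 to 7.5005) against 4.33 elsewhere at E15.5, and 6.69 CPM (5.31 to 8.33) against 7.04 at E17.5, with ratios of 0.841 (0.334 to 1.77) and 0.9501 (0.742 to 1.202). Against the other osteogenic clusters alone the E15.5 ratio was 0.365. Against all other labelled cells the E17.5 ratio was 1.43 in suffix 1 (12 UMIs in OG1) and 0.736 in suffix 2. The highest clusters were OG3, MG2 and OG4 at E15.5 (14.7, 14.5 and 14.4 CPM) and MG2, MG1 and OG3 at E17.5 (14.5, 10.9 and 9.47 CPM). All neighbours in both orders overlapped, and EC3 (0.839 CPM) and EC2 (1.26 CPM) were lowest at the respective stage. The ends of the orders were far apart, as MG2 at E17.5 (11.3 to 18.3) lay above EC2 (0.603 to 2.31). MG2 also lay above OG1, in the middle of that order. The endothelial gate reached 111 and 179 CPM and the macrophage gate 57.3 and 55.9 CPM. *Fli1* was detected in 2.68% and 7.03% of OG1 cells (thinned 1.22% and 1.97%). The neuron gate, with no cell at E15.5 and 65 at E17.5 (median 9514 UMIs), gave 3.08% (thinned 0.549%) and 2.34 CPM (0.284 to 8.47), an interval that met that of OG1. *Fli1* and *Erg* so differed in OG1, while both were high in the endothelial gate at E17.5.

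*Ets1*, active in vascular and mesenchymal cells, stood at 11.96 CPM (7.58 to 17.9) in OG1 at E15.5 against 6.60 in the other labelled cells, a ratio of 1.81 (1.13 to 2.77). Against the other osteogenic clusters alone that ratio turned to 0.844. At E17.5 it was 6.53 CPM (5.16 to 8.14) against 5.97, a ratio of 1.09 (0.850 to 1.39). That later level met the 6.09 CPM (4.48 to 8.10) of the macrophage gate and is not set above it. The E15.5 level lay above the 3.43 CPM (1.65 to 6.31) of that gate. PO2 (22.7 CPM), OG3 (20.1) and OG2 (18.0) were highest at E15.5, MG4 (11.6 CPM), PO1 (11.003) and PO2 (9.88) at E17.5, and neighbours overlapped throughout both orders. The endothelial (119 and 138 CPM), pericyte (93.9 and 91.5) and glia (203 and 113) gates far exceeded every labelled cluster. The glia gate held only 7 and 31 cells.

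*Ets2*, a widely expressed factor that responds to Ras and MAP kinase signals, was like *Erg* highest in OG1 at E17.5. In OG1 it stood at 30.2 CPM (22.9 to 39.0) against 19.9 in the E15.5 library, then at 55.2 CPM (51.1 to 59.6) against 18.2, giving ratios of 1.51 (1.14 to 1.98) and 3.03 (2.76 to 3.32). Against the other osteogenic clusters alone the E15.5 ratio turned to 0.809. At E15.5 PO2 (59.9 CPM), OG2 (45.3) and PO1 (44.6) came before OG1 with overlapping neighbours. At E17.5 OG1 came first, and its interval did not meet that of MG2 (40.1 CPM, 34.6 to 46.1). The place of OG1 at the top was thus new at E17.5, where PO2 (17.9 CPM), OG2 (19.2) and PO1 (21.3) were all lower than before. Between the libraries the *Ets2* ratio in OG1 was 1.83, with a lower limit of 1.40, against 0.915 (0.842 to 0.995) in the other labelled cells, and 5 of the 15 clusters had an interval below 1. The macrophage gate had 51.8 CPM (43.9 to 60.8) and 35.8 CPM (31.7 to 40.3), so *Ets2* in OG1 was under it at E15.5 and over it at E17.5. Mast-cell-gated cells had 7.36 and 19.5 CPM, and the endothelial gate 138 and 190 CPM.

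**Figure D1:**
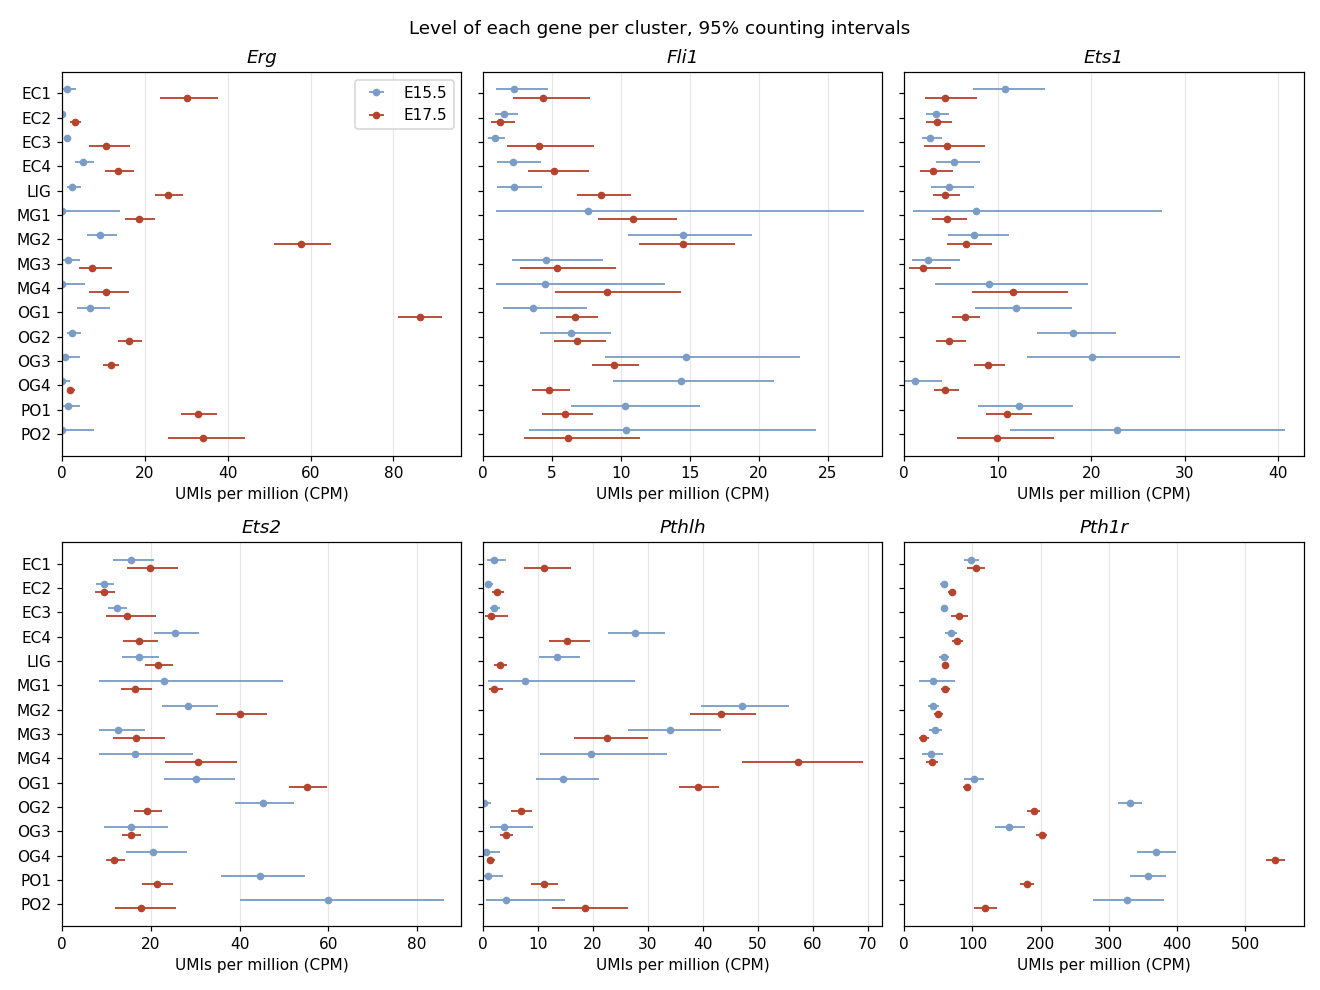
Levels of the 6 genes in the 15 clusters at E15.5 and E17.5, in CPM. Bars are exact 95% Poisson intervals, which cover counting error alone.

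The wider ETS family was read from a list of 26 genes, all found, of which 18 had at least 50 UMIs in each library. At 2-fold or more in OG1 were 4 of the 18 at E15.5 and 2 at E17.5, where all genes gave 3.68% and 0.817%. *Erg* was the 1 gene in both (all genes 0.295%), with none at 0.5-fold or less in both (4.31%). The median OG1 ratio of the list was 1.2003 and 1.01, beside 1.03 and 0.978 for all 11868 genes. The genes past 2-fold at a single stage, named after the values were seen, were *Etv1* (3.65), *Etv4* (2.77) and *Elk3* (2.06) at E15.5 and *Ets2* at E17.5. The median of the list was thus above that of all genes at E15.5 and close to it at E17.5. The UMIs of the whole family summed to 301 CPM in OG1 at E15.5 and 381 at E17.5, of which *Erg* made up 2.25% and 22.7%. In MG2 the *Erg* share went from 3.13% to 17.1%, and in OG4 it was 0% and 1.18%. It went from 0.501% to 11.2% in PO1, 0% to 11.6% in PO2, 0.501% to 11.2% in EC1 and 0.994% to 9.69% in LIG. The *Erg* share of ETS transcripts so rose in several clusters and was largest in OG1 and MG2 at E17.5.

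*Pthlh*, the ligand, was highest in a meningeal cluster at both stages, with OG1 near the top at E17.5. In OG1 its level was 14.6 CPM (9.68 to 21.0; 28 UMIs) against 9.34 elsewhere at E15.5, a ratio of 1.56 (1.02 to 2.29). At E17.5 it was 39.2 CPM (35.7 to 42.9; 468 UMIs) against 9.38, a ratio of 4.18 (3.71 to 4.69), with rank 6 among 11868 genes. Against the other osteogenic clusters alone the ratios were 12.9 and 6.78, so the size of the *Pthlh* ratio depends on the reference. The E15.5 order began with MG2 at 47.2 CPM (39.7 to 55.7), MG3 at 34.1, EC4 at 27.6 and MG4 at 19.6, then OG1 and LIG at 13.5, with every neighbour overlapping. The E17.5 order began with MG4 at 57.4 CPM (47.1 to 69.2), MG2 at 43.4 (37.7 to 49.7) and OG1, which did not meet the next cluster, MG3 at 22.5 (16.5 to 30.1). OG1 thus met MG2 but lay under MG4, whose interval it did not meet. Meningeal clusters held 47.8% and then 30.7% of labelled *Pthlh* UMIs, ectocranial ones 43.75% (EC4 24.4%) and then 12.1%, and OG1 held 6.03% and then 38.2%. Of all labelled UMIs the same groups held 12.1% and 15.4%, 64.0% and 28.2%, and 3.96% and 12.9%, so these shares also carry the change in cluster mix.

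Between the libraries *Pthlh* was redistributed and not uniformly raised. The E17.5 to E15.5 ratio was 2.69 in OG1 (1.84 to 4.09), 11.2 in PO1 (from 2 to 80 UMIs), 4.48 in PO2 and 2.93 in MG4, while it was 0.225 in LIG and 0.556 in EC4. In the labelled cells outside OG1 it was 1.004 (0.891 to 1.13), a pooled value over clusters that went both ways and whose shares of all UMIs changed. The rise was not particular to OG1, as it was 3.52 (2.75 to 4.49) in the chondrocyte gate. With 1 more marker needed, that gate went from 8.61 to 22.2 CPM. The macrophage gate, taken below as background, also gave 3.52, with a lower limit of 1.09, so the background itself was higher at E17.5. Over the 15 clusters the interval lay above 1 in 7, below 1 in 3 and held 1 in 5. OG2 went from 1 to 54 UMIs, a ratio of 27.9 with a lower limit of 4.81, although both levels met the background given below. MG2, the leading E15.5 cluster, kept its level with a ratio of 0.920. *Pthlh* so differed from *Erg*, whose interval lay above 1 in 14 of the 15 clusters. Of these, EC2 was not set above the macrophage gate for *Erg* at E17.5, and MG3, MG4 and EC3 met it. That gate was itself at least 7.05-fold higher in *Erg* at E17.5.

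The background for *Pthlh* was again taken from the macrophage gate, at 1.03 CPM (0.212 to 3.01) and 3.63 CPM (2.41 to 5.25). By that measure OG2, OG4, EC2 and PO1 at E15.5, and OG4, EC3, MG1, EC2 and LIG at E17.5, are at background. At E15.5 EC1, EC3, OG3, PO2 and MG1 overlapped it, as did OG3 (4.19 CPM) and OG2 (6.81 CPM, 5.12 to 8.89) at E17.5. The ratios of PO1 and PO2 between the libraries thus start from levels not set above background. These readings depend on the gate taken, as the endothelial gate had 0 UMIs at E15.5 and 5 at E17.5 (4.51 CPM). *Pthlh* had a UMI in 8.43% of OG1 cells at the earlier stage and 28.1% at the later, beside 0.694% and 3.47% in the macrophage gate (medians 9278 and 9967 UMIs). Thinned to 3000 UMIs, the shares were 4.19% and 10.7% in OG1 and 0.296% and 1.09% in that gate. OG1 was above background at both stages at equal depth. Among unlabelled cells the chondrocyte gate stood at 10.2 CPM and 36.0 CPM (8.61 and 22.2 with 1 more marker needed), and the osteoclast gate had 0 UMIs and then 8.

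*Erg* and *Pthlh* were found in the same OG1 cells at E17.5. At E15.5 0 of 261 OG1 cells held a UMI of both, with an upper limit of 1.40% (3 cells would be 1.15%) and only 11 *Erg* cells and 22 *Pthlh* cells to draw on. At E17.5 194 of 1010 cells, or 19.2% (16.8 to 21.8), held both, 332 held *Erg* only, 90 *Pthlh* only and 394 neither. The 3 barcode suffixes gave 16.8%, 18.3% and 20.6%, so the share was alike in all of them. In the macrophage gate, *Erg* was seen in 5.94% of cells and *Pthlh* in 3.47%, both under the share of OG1 cells with the pair.

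*Pthlh* was seen in 36.9% (32.7 to 41.2) of the E17.5 OG1 cells with *Erg* and in 18.6% (15.2 to 22.4) of those without, although the cells with *Erg* had slightly fewer UMIs (median 10720.5 against 11056.5). Thinned to 3000 UMIs, the shares were 15.6% and 9.31%, and 3.53% of cells held both. The order of the shares thus held at equal depth. By suffix the OG1 shares were 32.1% and 22.9%, 36.0% and 17.8%, and 38.8% and 18.4%, with overlapping intervals in suffix 1. In PO1 the shares were 32.5% with *Erg* and 8.86% without (medians 17499.5 and 20870 UMIs), thinned 7.63% and 3.17%. OG2 had *Pthlh* in 18 of 90 cells with *Erg* (12.3 to 29.8%) and in 4.40% without, thinned 12.2% and 2.05%, and OG3 14.8% and 3.30%, thinned 4.74% and 1.13%. Median UMIs with and without *Erg* were 14422 and 15294 in OG2 and 13379 and 12868 in OG3. In MG2, where both genes were also high, they were 29.2% (22.7 to 36.5) and 25.1% (20.2 to 30.4), thinned 14.5% and 11.4%. Over all suffixes together the share was thus higher in *Erg* cells in OG1, PO1, OG2 and OG3, while in MG2 the intervals overlapped. Intervals without *Erg* were 2.67 to 6.78% in OG2 and 2.18 to 4.76% in OG3, where the interval with *Erg* was 8.71 to 22.9%. In OG2 and OG3 the cells without *Erg* were near the 3.47% of the macrophage gate (thinned 1.09%), and those with *Erg* lay above it. That gate was not divided by *Erg*, and these 2 clusters were not divided by suffix. OG4, with 20 *Erg* cells, held both genes in 2 of 527 cells.

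**Figure D2:**
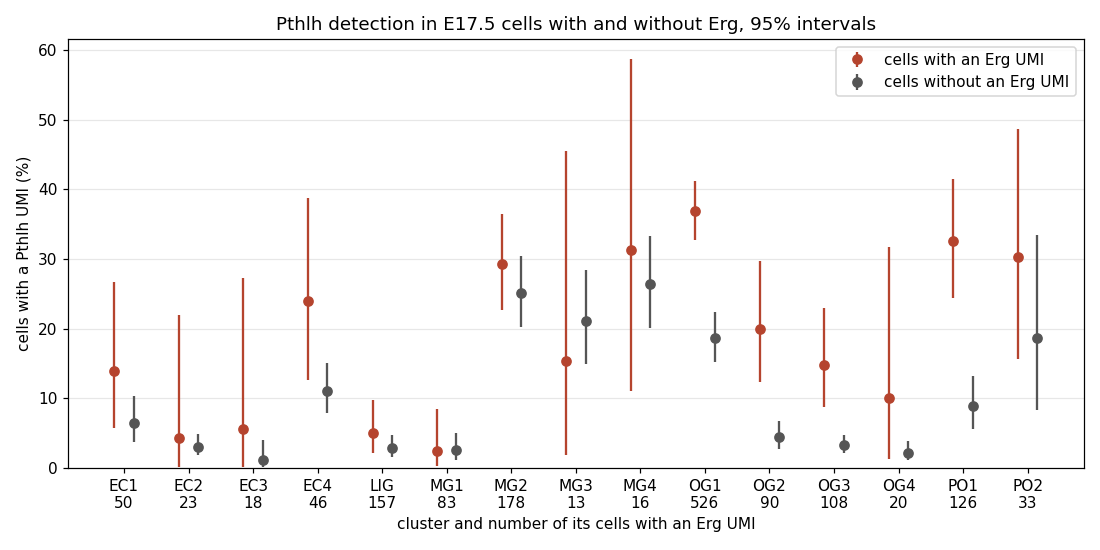
Share of E17.5 cells with a Pthlh UMI among cells with and without an Erg UMI, in each cluster, at full depth. Bars are Clopper-Pearson 95% intervals.

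Other pairs in E17.5 OG1 cells set this in context. *Ets2* was seen in 50.2% (45.8 to 54.5) of cells with *Erg* and 32.9% (28.7 to 37.2) of cells without, thinned 20.003% and 14.3%, beside 34.0% of macrophage-gated cells (thinned 11.02%) and 21.5% of neuron-gated cells (median 9514 UMIs, thinned 5.27%). *Fli1* gave 6.65% and 7.44%, and *Ets1* 7.41% and 7.23%, both with overlapping intervals. Of these 3 ETS relatives *Ets2* was thus the more frequent beside *Erg*, and other ETS genes were not tested. In suffix 1 the *Ets2* shares were 47.2% (33.3 to 61.4) and 37.5% (24.0 to 52.6), the same order with overlapping intervals. *Erg* and *Six2*, a suture mesenchyme gene, met in 215 cells, with *Erg* in 59.2% (54.0 to 64.3) of *Six2* cells and 48.1% (44.2 to 52.0) of the others, thinned 27.9% and 21.9%. In suffix 1 the order turned, with 16 of 32 *Six2* cells against 53.6% of the others and overlapping intervals. *Six2* itself was seen in 35.9% of OG1 cells and 7.59% of macrophage-gated cells, thinned 12.3% and 1.96%. *Pth1r* was seen in 48.6% (42.6 to 54.6) of *Pthlh* cells and 55.6% (51.9 to 59.3) of cells without, thinned 15.8% and 21.4%. These intervals overlapped at full depth, where suffix 1 had the reverse order (67.9% and 53.4%). Thinned, the suffixes gave 19.03% and 20.4%, 17.4% and 22.3%, and 13.6% and 20.8%. The share was thus lower in *Pthlh* cells in all 3 at equal depth, by little in suffix 1. Ligand and receptor were met together in 138 OG1 cells. *Ets2* and *Pthlh* were thus the members found more often beside *Erg*.

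The E17.5 OG1 cells were then divided by detection of *Erg* and *Pthlh*, and the levels of other genes read in each class. *Sp7*, an osteoblast factor, was 50.4 CPM (41.9 to 60.2) in cells with both, 78.8 (70.1 to 88.2) with *Erg* only, 66.3 (51.4 to 84.2) with *Pthlh* only and 129.7 (119.6 to 140.4) with neither. *Runx2*, which acts upstream of *Sp7*, gave 63.5, 76.4, 48.5 and 104 CPM in the same order, and *Pth1r* 61.9, 79.8, 65.3 and 123.3 CPM. Both bone factors and the receptor were so highest in cells with neither gene, for *Pth1r* at 113.5 to 133.8 CPM against 50.5 to 83.1 with *Pthlh* only. The shares above set *Pthlh* cells against all others, *Erg* cells included, and are another comparison. The classes were not divided by suffix. *Net1* ran the other way, at 266, 162, 172 and 121 CPM, as did *Ets2* at 82.4, 58.6, 76.2 and 33.9 CPM. *Six2* was 49.6, 47.0, 57.4 and 30.03 CPM. At E17.5 cells with *Erg* or *Pthlh* so carried less *Sp7*, *Runx2* and *Pth1r* and more *Net1*, *Six2* and *Ets2* than cells with neither. Not every osteogenic gene followed, as *Dlx5* was 154.1, 154.7, 173.2 and 173.2 CPM and *Dlx6* 40.6, 47.8, 40.6 and 49.4 CPM. At E15.5 the classes were too small to repeat this reading, and *Runx2* did not keep this order there, at 94.8 CPM (45.5 to 174) in the 11 *Erg* cells and 35.4 CPM (26.9 to 45.7) in cells with neither, with intervals that met. The median UMIs of the 4 classes lay between 10656 and 11180. *Fli1* went from 2.97 CPM (0.612 to 8.68; 3 UMIs) with *Pthlh* only to 7.88 CPM with neither, and *Ets1* from 4.95 CPM with *Pthlh* only to 7.38 CPM with both, with overlapping intervals that do not set the classes apart.

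**Figure D3:**
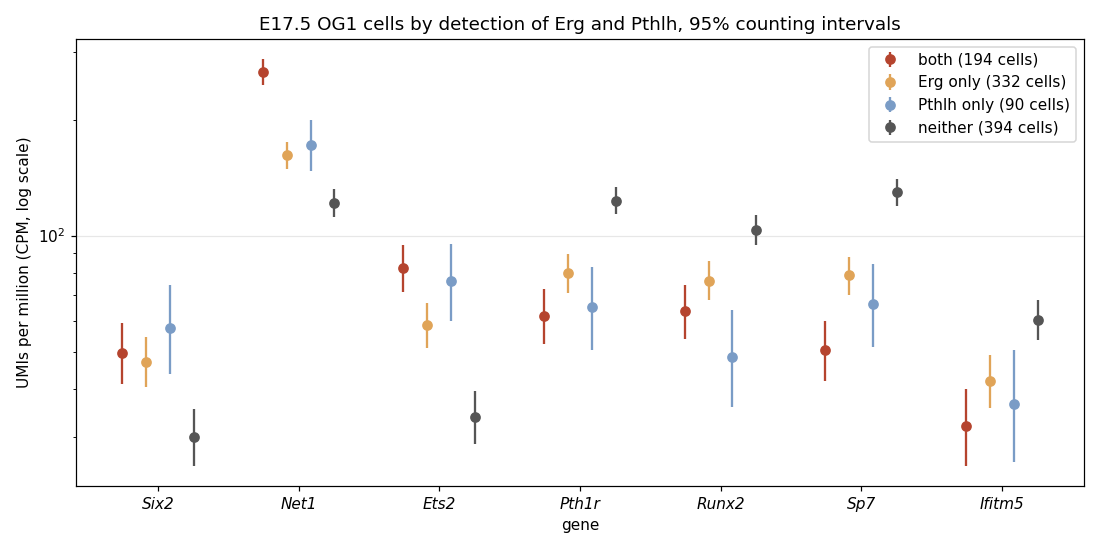
Levels of 7 genes in E17.5 OG1 cells with Erg and Pthlh both detected, Erg only, Pthlh only or neither. Bars are exact 95% Poisson intervals.

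*Pth1r*, the receptor, was highest in a cluster at background for its ligand. OG4, the cluster with the most *Ifitm5*, was highest in each library, at 369 CPM (341 to 398) and 544 CPM (530 to 558). At E15.5 PO1 (357 CPM), OG2 (331) and PO2 (326) followed with overlapping neighbours, then, without overlap, OG3 at 154 CPM and OG1 at 102 CPM (88.2 to 117). At E17.5 OG4 stood alone, OG3 (202 CPM), OG2 (189.7) and PO1 (180.04) overlapped in turn, and OG1 came after PO2 (118) and EC1 (105) at 92.0 CPM (86.7 to 97.6). OG1 was thus the lowest of the 6 osteogenic clusters at both stages. The OG1 to other ratio was 0.892 (0.770 to 1.03) by E15.5 counts, or 0.534 (0.502 to 0.568) by E17.5 counts. By this ratio none of the 6 members was at 0.5-fold or less in both libraries, as 4.31% of all genes were. Against the other osteogenic clusters alone the *Pth1r* ratios were 0.319 and 0.327, under 0.5-fold in both. Across the 15 clusters the correlation of *Pthlh* with *Pth1r* was -0.680 at E15.5, then -0.446 at E17.5, with clusters at background for either gene included. That of *Erg* with *Pthlh* was 0.493 and 0.545.

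Osteogenic clusters held 59.8% of labelled *Pth1r* UMIs at E15.5 and 82.8% at E17.5. Between the libraries the receptor was higher in OG4, with a ratio of 1.48 (lower limit 1.36), and in OG3 (1.31), and lower in OG2 (0.574), PO1 (0.504) and PO2 (0.361). In OG1 the ratio was 0.903 (0.775 to 1.06), or 1.45 by mean UMIs per cell, a scale that moves all genes alike. The interval of the main ratio held 1, and the ratio was 0.718 in suffix 1, so no direction is read. In the other labelled cells together it was 1.51 (1.46 to 1.56), above that of every single cluster. The cluster mix changed with it, as osteogenic clusters held 24.0% and then 56.3% of labelled UMIs and OG4 3.72% and then 11.3%. Macrophage-gated cells carried 21.3 CPM (16.3 to 27.3) and 61.8 CPM (56.4 to 67.6), and endothelial-gated cells 29.1 and 21.6 CPM. Against the macrophage level at E17.5 the meningeal clusters (27.9 to 60.5 CPM), LIG (59.8) and EC2 (69.6, overlapping) could not be read as carrying the receptor. The glia gate stood at only 9.16 CPM (3 UMIs) at E17.5, so this reading depends on the gate taken as background. OG1 lay above these gates, but not above the chondrocyte (93.1 CPM), pericyte (82.7 CPM, 71.3 to 95.4) and mast-cell (92.4 CPM, 69.0 to 121) gates at E17.5, so its level there is not set apart from all unlabelled cells. *Pth1r* was detected in 39.8% and 53.7% of OG1 cells beside 9.72% and 21.3% of macrophage-gated cells, thinned 24.2% and 20.8% beside 3.97% and 7.56%.

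The PTHrP pathway was read from a list of 48 genes, all found, of which 42 had at least 50 UMIs in each library. In OG1, 1 was at 2-fold or more at E15.5 and 2 at E17.5, with 0 in both and 2 at 0.5-fold or less in both. All genes gave 3.68%, 0.817%, 0.295% and 4.31%, so the 2 low genes of 42 are about what the background gives and are not a result about the list. The list medians were 0.930 and 0.966, close to 1.03 and 0.978 for all genes. The low genes were *Tnfrsf11b*, the decoy receptor for RANK ligand, at 0.169 and 0.0490, and the collagenase *Mmp13* at 0.307 and 0.436. Named after the values were seen, the high ones were *Ptch1*, the hedgehog receptor, at 3.64 at E15.5, and, beside *Pthlh*, the receptor-associated *Ramp2* at 2.62 at E17.5. Of the other ligands *Pth* had 3 and 2 UMIs in all labelled cells and none in OG1, and *Pth2* had 0 in both libraries. The other receptor, *Pth2r*, had 1 and 3 UMIs. *Pthlh* and *Pth1r* were thus the only ligand and receptor of the list with enough counts to read.

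The genes most like a member across the 15 clusters were ranked among 9648 genes by the lower of the E15.5 and E17.5 correlations of log2 CPM. For *Erg* they were *Rasl11b* (0.775 and 0.756), *Tmem204* (0.710 and 0.817), *Scx* (0.736 and 0.707), *Mboat2* (0.687 and 0.774) and *Zfp101* (0.681 and 0.698). *Tmem204* was the only gene of these whose highest cluster was OG1 at both stages (15.1 and 45.5 CPM). For *Pthlh* they were *Atp6ap2* (0.892 and 0.874), *Tsc22d3*, *Foxp4*, *Prmt8* and *Prss12*, and each of the 5 was highest in MG2 or MG3 at both stages. For *Pth1r* they included *Mef2c* (0.921 and 0.962), *Elmo1*, *Plaur* and *Sytl2*, of which *Mef2c* and *Elmo1* were highest in OG4 at both stages. For *Fli1* they were *Daam2* (0.735 and 0.722), *Erc1*, *Gpc1*, *Cib2* and *Itpr1*. All points of these correlations share 1 sample per stage, and *Erg* at E15.5 rests on 104 UMIs.

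On the GRCm38 genome *Erg* (ENSMUSG00000040732) lies at chr16:95359169-95586593 on the minus strand and *Ets2* (ENSMUSG00000022895) at chr16:95702075-95721051 on the plus strand, with 115481 bases and no protein-coding gene between them. *Fli1* (ENSMUSG00000016087, chr9:32422204-32542861, minus) and *Ets1* (ENSMUSG00000032035, chr9:32636221-32757820, plus) are neighbours in the same way, 93359 bases apart. *Pth1r* (ENSMUSG00000032492, chr9:110722085-110747145, minus) and *Pthlh* (ENSMUSG00000048776, chr6:147252101-147264183, minus) lie elsewhere. Each ETS pair is thus divergent, and *Erg* and *Ets2*, both highest in OG1 at E17.5, form such a pair. No annotated gene overlaps *Erg*, *Ets2* or *Pthlh*, while *Fli1* has 5 noncoding or unclassified genes on its own strand. *Ets1* and *Pth1r* each have 1 overlapping gene, on the opposite strand.

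Promoter windows of RefSeq starts (GRCm38.p6) were available for 4 of the 6 members, with 8 windows in all, and *Fli1* and *Ets1* had none. The ETS core GGAA, searched on both strands (TTCC on the other) in the 250 bases before the start, occurs in 93.4% of 32851 windows. *Pthlh* has 3 cores and *Ets2* 1, the windows of *Erg* have 0, 4 and 2, and those of *Pth1r* 3, 1 and 1. Windows with 3 or more make up 54.7% of all and windows with 4 or more 33.4%, so these numbers are ordinary. The longer CCGGAA occurs in 12.03% of windows and, among the members, only in that of *Pthlh*. The window of *Pthlh* (chr6:147264014-147264263, minus strand) and the *Erg* window with the most cores (chr16:95530366-95530615, minus strand) are shown, with GGAA and TTCC in capitals. They were chosen because 194 of 1010 E17.5 OG1 cells held a UMI of both genes. The *Erg* window shown lies within the annotated gene. The *Erg* window directly before the start of the annotated gene (chr16:95586594-95586843) is the one with 0 cores. A match is a description only, and no binding was measured.
Pthlh: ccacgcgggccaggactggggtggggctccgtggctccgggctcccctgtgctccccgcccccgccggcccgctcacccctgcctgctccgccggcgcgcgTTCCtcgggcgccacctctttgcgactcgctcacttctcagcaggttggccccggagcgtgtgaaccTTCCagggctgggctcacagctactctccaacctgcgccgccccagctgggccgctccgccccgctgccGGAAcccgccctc
Erg: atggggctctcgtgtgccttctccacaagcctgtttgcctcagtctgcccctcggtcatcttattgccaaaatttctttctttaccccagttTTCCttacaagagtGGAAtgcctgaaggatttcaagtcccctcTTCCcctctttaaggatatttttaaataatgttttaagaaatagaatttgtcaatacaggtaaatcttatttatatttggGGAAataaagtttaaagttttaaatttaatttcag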

How the data were processed

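Single-cell RNA counts of 2 libraries were read from the deposited matrices, which hold counts of UMIs per gene and barcode that the authors made with Cell Ranger on mm10. The header of the E15.5 matrix gives release 3.1.0, the study's methods an earlier one. Cluster labels came from the deposited metadata table, which the authors made with Seurat 3.2.0 after FastQC 0.11.7 and MultiQC 0.9. The percent of mitochondrial and hemoglobin UMIs that the authors give there was computed anew from the matrix. In that table UMIs per cell equal the matrix in all 6830 E17.5 cells, while all 5335 E15.5 cells have fewer in the matrix than in the table (medians 8510 and 11513), so the matrix was used throughout. Of the labelled E15.5 barcodes 5 are missing from the matrix.

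UMIs of each gene were summed over the cells of each label and library and divided by all UMIs of those cells. Intervals are exact Poisson for levels, Clopper-Pearson for shares and conditional binomial for ratios, at 95%. Shares at 3000 UMIs are expected values of drawing that many UMIs from each cell. No test was run, since E15.5 has 1 library and the 3 separately prepared E17.5 batches, from 2 litters, were a technical control. OG1 ratios at E17.5 were also computed within each suffix. A cluster against the rest is a description, because clusters were defined on the same cells. Cells without a label had to reach 1000 UMIs and 1000 genes and could not exceed 7.5% mitochondrial UMIs or 3% of either Hbb or Hba, the study's own limits. This left 2875 and 1937 cells, which were gated by detected markers of endothelial cells, pericytes, macrophages, osteoclasts, chondrocytes, mast cells, glia and neurons. Labelled cells were kept as labelled, doublets included, and an alternative dropped the 5% of cells with the most UMIs. E17.5 barcode suffixes are not matched to batches in the labels.

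Genes named from the ETS and PTHrP lists are those at 2-fold or more, or 0.5-fold or less, in OG1 in both libraries and the ligands and receptors. Others are marked as chosen after the values were seen. Members and lists were chosen with earlier results of these data known. Gene positions came from GENCODE. Tables were handled in pandas 2.3.3 and numpy 2.4.6, intervals came from scipy 1.17.1 and figures from matplotlib 3.10.9, all under Python 3.11.15, and the code was tested on simulated data.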

Additional observations from a re-analysis of the deposited data

How the results depend on the processing

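Of 205 alternative settings of the values above, 164 gave a value within the main interval (for gene counts, within 1.5-fold of the main count), 39 moved it outside and 2 reversed it, and the cause was not tested for any. Where the interval is wide, a value within it can still differ much in size. No paired analysis was possible because no embryo or suture is identified in both libraries.

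The reversals came with the other osteogenic clusters as the reference at E15.5. *Ets1* in OG1 went from a ratio of 1.81 to 0.844 and *Ets2* from 1.51 to 0.809. With the same reference *Pthlh* moved to 12.9 at E15.5 and 6.78 at E17.5, *Erg* to 5.84 and *Ets2* to 3.36 at E17.5, and *Pth1r* to 0.319 at E15.5 and 0.327 at E17.5. *Fli1* at E15.5 went from 0.841 to 0.365, within its wide interval. The height of OG1 over its own lineage was therefore larger for *Erg* and *Pthlh* and absent for *Ets1* and *Ets2* at E15.5.

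With mean UMIs per cell, not scaled to depth, the OG1 ratio at E17.5 was 4.16 for *Erg*, 2.59 for *Ets2*, 3.57 for *Pthlh* and 0.456 for *Pth1r*, and that of *Pth1r* at E15.5 was 0.715. On the same scale the E17.5 to E15.5 ratio in OG1 was 20.5 for *Erg*, 2.95 for *Fli1* and 0.876 for *Ets1*, against 12.8, 1.84 and 0.546, all within their intervals. It was 2.94 for *Ets2*, 4.32 for *Pthlh* and 1.45 for *Pth1r*, the last from below 1 to above it, with the interval of the main value holding 1. This scale raises the stage ratio of every gene in OG1 by the same factor, so the crossing is not a result about *Pth1r*. With each cell weighing the same, the E17.5 ratio was 3.50 for *Pthlh* and 0.580 for *Pth1r*. As shares thinned to 3000 UMIs it was 4.30 for *Erg*, 3.44 for *Pthlh* and 0.716 for *Pth1r*. Without mitochondrial and ribosomal protein genes in the total, that of *Pth1r* was 0.568.

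Within the E17.5 barcode suffixes, suffix 1 gave OG1 ratios of 1.43 for *Fli1*, 2.51 for *Ets2* and 3.17 for *Pthlh*, and E17.5 to E15.5 ratios of 0.718 for *Pth1r* and, within the interval, 2.77 for *Fli1*. Suffix 2 gave 0.736 for *Fli1*, 0.823 for *Ets1* and 0.569 for *Pth1r*, and suffix 3 gave 1.48 for *Ets1* and 0.481 for *Pth1r*. The ratios of *Fli1* and *Ets1* thus fell on both sides of 1, as their intervals had.

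Co-detection of *Erg* and *Pthlh* in E17.5 OG1 cells was 3.53% when thinned and 5.05% with at least 2 UMIs of each gene. Genes at the limit in OG1 in both libraries numbered 156 at 1.5-fold, 7 at 3-fold and 99 of 14002 with at least 10 UMIs, beside 35 in the main setting. At 1.5-fold the ETS list had 3 and the PTHrP list 2. With 1 more marker needed, *Pthlh* in the chondrocyte gate was 8.61 CPM at E15.5 and 22.2 CPM at E17.5, and *Fli1* in the macrophage gate 63.5 CPM at E17.5. No value moved when the 5% of cells with the most UMIs, the labelled cells that miss the filters or the unlabelled cells under 3000 UMIs were dropped, or when genes were matched by identifier.

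The limits are those of 1 deposited sample per stage, counted with different reference gene lists. The 3 E17.5 batches were a technical control, and the labels do not match them to suffixes. *Erg* at E15.5 rests on 104 UMIs in labelled cells, 13 of them in OG1, and the upper limit for co-detection in OG1 there is 1.40%. Depth also limits any statement on cells without a UMI, since absence of a UMI is not absence of the transcript. The gates hold 0 to 1305 cells at E15.5 and can mix types. Clusters are the deposited labels and were not redrawn.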

Other observations

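Unlabelled cells held much of the *Erg* count at E15.5. Labelled cells had 36.5% of the *Erg* UMIs of all cells used at E15.5 and 79.7% at E17.5, while the chondrocyte gate had 30.5% and 3.79% and the mast-cell gate 14.7% and 0.745%. For *Pthlh* the chondrocyte gate had 19.8% and 8.22%. The chondrocyte gate itself went from 1305 to 294 cells. In that gate *Ets2* was 70.3 and 42.5 CPM, *Ets1* 38.0 and 41.6 CPM and *Pth1r* 63.6 and 93.1 CPM at E15.5 and E17.5.

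Marker lists of other cell types were summed in OG1 and in their gates. At E15.5 and E17.5 the macrophage markers summed to 17.7 and 47.02 CPM in OG1 and 3595 and 6248 CPM in their gate, the pericyte markers to 44.7 and 30.9 against 1462 and 2614 CPM, and the chondrocyte markers to 285 and 115 against 11971 and 9097 CPM. Osteoclast markers summed to 179 and 342 CPM in OG1, nearly all *Ctsk* (160.2 and 315 CPM), and mast-cell markers to 69.2 and 26.1 CPM. Neuron markers gave 0 and 3.51 CPM. Joint markers (*Gdf5*, *Prg4*, *Wnt9a*, *Enpp2*, *Osr2*) summed to 138 CPM in OG1 against 228 elsewhere at E15.5 and 89.3 against 95.3 at E17.5. The gates were chosen by these same markers, so their sums are high by construction.

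Further genes that the study ties to OG1 or bone are given by their level in OG1 against that in labelled cells outside it. The E15.5 values were *Dlx5* 22.9 against 9.68 CPM, *Dlx6* 4.68 against 1.54, *Lef1* 50.4 against 12.7, *Inhba* 45.2 against 15.8, *Gli1* 27.0 against 14.1, *Prrx1* 487 against 467, *Podnl1* 3.12 against 1.99, *Dmp1* 4.16 against 24.6 and *Sost* 1.56 against 1.07. At E17.5 they were *Dlx5* 163 against 95.8 CPM, *Dlx6* 46.3 against 30.3, *Lef1* 11.1 against 5.72, *Inhba* 16.1 against 8.67, *Gli1* 21.2 against 13.2, *Prrx1* 421 against 413, *Podnl1* 6.86 against 9.56, *Dmp1* 0.837 against 12.6 and *Sost* 0 (3 UMIs would be 0.251) against 1.98. *Pth1r* in pericyte-gated cells went from 26.5 to 82.7 CPM and in mast-cell-gated cells from 24.4 to 92.4 CPM, and their part in the levels of the labelled clusters was not tested.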
